A study of Arabidopsis thaliana with 40 samples.

Results

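The beta-glucosidases (BGLU) and the serine carboxypeptidase-like proteins (SCPL) are among the larger enzyme families of Arabidopsis thaliana that act on glucose conjugates or use them as donors. Their transcripts were followed in leaves of mutants in genes for mitochondrial proteins, with and without a moderate light and drought stress. Members were all probe sets that the platform annotation pairs with 1 gene whose symbol is BGLU or SCPL followed by a number. This gave 49 probe sets of 22746 that were not array controls, 20 for BGLU and 29 for SCPL, each for a different gene. The RefSeq gene table of Arabidopsis (assembly TAIR10.1) lists 47 BGLU and 51 SCPL genes, so less than the whole of each family was measured. Of the SCPL members, 6 are spelled in capitals and 23 in small letters (scpl48) in the annotation, and both spellings were taken and are kept here. A further 3 probe sets that match several genes were left out.

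The 40 arrays form 3 sets, each with its own Col0 wild type. The first set held the aox1a mutant, a mutant in the gene for alternative oxidase 1a of the mitochondrial inner membrane. The second held rpoTmp, a mutant of the phage-type RNA polymerase that serves both mitochondria and plastids, and the third the double mutant of aox1a:rpoTmp. Both single mutants came as 2 lines with 2 arrays per line and treatment. The double mutant and each wild type had 3 arrays per treatment, and the labels name no second line of the double mutant. Plants were either kept at 100 µE light with water (untreated) or moved to about 350 µE on dry soil (moderate light and drought, MLD), and leaves were taken 4 d after the transfer. The labels do not agree on plant age. The protocol gives 4 weeks for wild type and aox1a, 5 weeks for rpoTmp and 6 to 7 weeks for the double mutant, the source label gives 4 weeks for all, and the age field gives 5 weeks for rpoTmp and for both untreated groups of the double mutant set. Genotype and age therefore cannot be told apart in the rpoTmp and double mutant comparisons, nor, by the age field, can treatment and age in the double mutant set. Nothing in the labels says whether replicate arrays came from separate plants. The p-values measure the spread between replicate arrays of a group, which may therefore be technical. Each line of a single mutant was its own group in the fits, so SE and p-values leave out the difference between its lines.

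Beta-glucosidases of glycoside hydrolase family 1 release glucose from the inactive glucosides in which plants store hormones, phenolics, monolignols and defence compounds. Myrosinases, which start glucosinolate breakdown, belong to the same family. The SCPL proteins share the alpha/beta hydrolase fold and the serine, aspartate and histidine triad of carboxypeptidases. Some are peptidases of the vacuole, while others are acyltransferases that take the acyl group from a glucose ester, as in the synthesis of sinapoylmalate. In both families most members are known from sequence rather than from a measured activity, and a role is given below only where one is established.

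Values are log2 of the deposited linear intensity, and differences are log2 differences from a limma fit for each set, with p-values adjusted over all 22746 probe sets and called under 0.05. Errors are SE, and n is 3 arrays for each wild-type and double mutant group and 4 for each single mutant and treatment (both lines). Array medians lay between 23.3 and 26.9 on the linear scale. In the aox1a set the second array of untreated wild type stood apart, with the lowest correlation to its own group of all 40 arrays (0.979, against up to 0.995). Without it, 36 of the 42 member calls within the aox1a set were kept. The RPOTMP probe set (AT5G15700) was near the floor in every group, from 2.42 to 4.87, the highest in stressed aox1a. Untreated rpoTmp read 2.42 to 2.70 against 2.75 to 2.99 in wild type, while the stressed ranges overlapped. The double mutant read 2.53 to 2.58 against 2.82 to 3.86 untreated and 2.49 to 2.52 against 2.55 to 2.64 under MLD. Differences this close to the floor give no firm check of the rpoTmp labels. AOX1A has no probe set in the annotation table. Of 16 leaf mesophyll markers 3 were measured. RCA was at 14.01 to 14.54 throughout, but LHCB4.2 was at 9.70 to 11.01 in the 4 stressed single mutant groups against 12.02 to 13.87 in the other 12, and PSAN at 10.91 to 11.90 against 12.89 to 13.87. The log2 of the summed linear intensities of the 3 was 14.44 to 14.81 in the former groups and 14.85 to 15.65 in the latter. Signals of different probe sets are not on a common scale, so this sum is no measure of mesophyll content. The root markers EXPA7 and PYK10, the latter a beta-glucosidase itself, lay between 2.18 and 3.01. In leaf tissue as a whole, fewer cells of a type and less RNA per cell cannot be told apart. The part of these shifts in the results below was not tested.

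RNA quality moved with some of the groups. The log2 ratio of the 3′ to the 5′ GAPDH control probe set was 3.88 to 4.10 in stressed wild type of the double mutant set and 3.49 to 3.66 in untreated wild type, against 3.13 to 3.25 in the untreated and 3.06 to 3.57 in the stressed double mutant. In the rpoTmp set it was 3.45 to 3.89 in the stressed and 3.03 to 3.22 in the untreated mutant, without overlap, and 3.21 to 3.82 in stressed and 3.01 to 3.38 in untreated wild type. In the aox1a set all 4 ranges overlapped, between 2.69 and 3.92. The part of this ratio in the MLD responses of rpoTmp and in the results of the double mutant set was not tested.

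Most members gave signals near the floor of the arrays. In 13 of 20 BGLU and 16 of 29 SCPL probe sets every one of the 16 group means was under log2 5, and their means over all arrays lay between 2.29 and 3.19 for BGLU and between 2.00 and 3.32 for SCPL. The members that reached log2 5 in at least 1 group were BGLU16, BGLU25, BGLU33, BGLU40, BGLU42, BGLU44 and BGLU47, and scpl20, scpl25, scpl26, SCPL27, scpl29, SCPL34, scpl35, scpl42, SCPL45, scpl46, scpl48, SCPL49 and scpl50. The 9 BGLU and 13 SCPL members never called in any of the 19 comparisons were all among the dim ones. They were BGLU15, which acts on flavonol glycosides, BGLU28, which is induced under sulphur limitation, and BGLU36, of the myrosinase type, with BGLU19, BGLU24, BGLU29, BGLU31, BGLU32 and BGLU41, and the SCPL members scpl18, scpl21, scpl22, scpl23, scpl28, scpl30, SCPL32, scpl33, scpl38, scpl40, scpl41, SCPL43 and scpl44. A signal near the floor says little about how their transcripts varied.

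**Figure D1:**
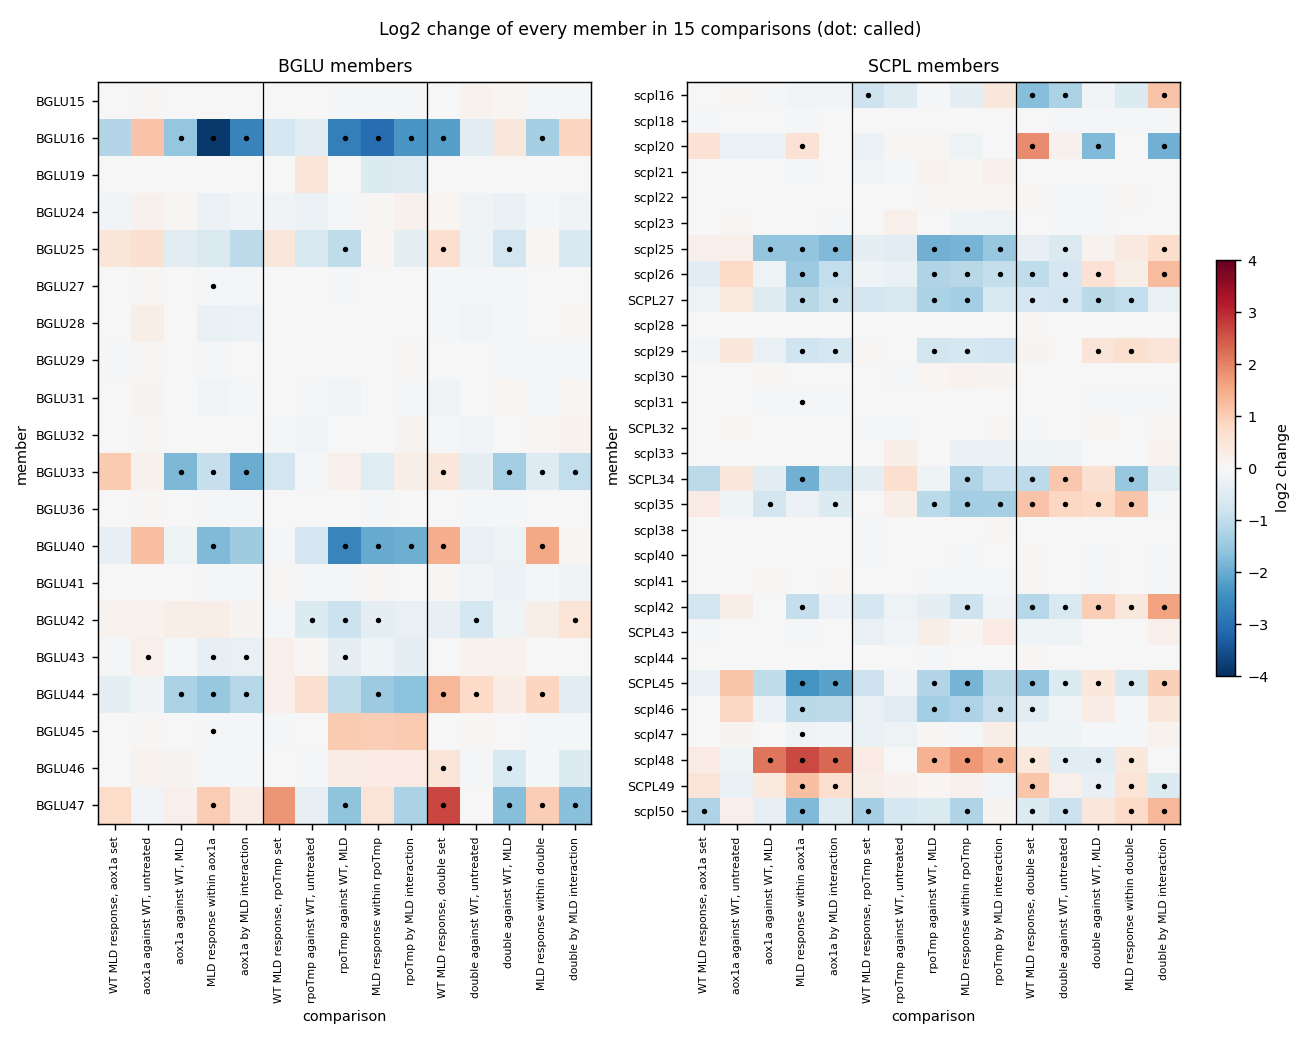
Log2 change (colour, from -4 blue to 4 red) of each of the 20 BGLU (left) and 29 SCPL members (right) in 15 comparisons, with those of the aox1a, rpoTmp and double mutant sets separated by lines; WT is wild type and a dot marks an adjusted p under 0.05. Colour is limited to a minority of rows, with BGLU16 blue and scpl48 red in both stressed single mutants.

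The medians of both families stayed near 0. Across the 19 comparisons the median log2 change lay between -0.12 and 0.080 for the 20 BGLU members and between -0.068 and 0.024 for the 29 SCPL members. The medians of all probe sets lay between -0.042 and 0.019. With 13 of 20 BGLU and 16 of 29 SCPL members dim, the family medians rest mostly on signals near the floor. They say little about the members that reached log2 5, and the shares called below include the dim members. In the MLD response within aox1a, 8 of 20 BGLU (40%) and 14 of 29 SCPL members (48.3%) were called, against 52.0% of all probe sets. The share of BGLU members called was furthest below that of all probe sets in the interaction of the double mutant set, with 3 of 20 (15%) against 32.6%, and in the stressed double mutant against wild type, with 4 of 20 (20%) against 35.9%. The share of SCPL members was furthest above it in the untreated double mutant, where 10 of 29 (34.5%) were called against 19.7%, and 2 of 20 BGLU members (10%). Without the second array of the untreated double mutant or the first of its untreated wild type the SCPL count was 6, where 3707 and 3422 of 22746 probe sets were called. No test of a family against the other probe sets was made.

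**Figure D2:**
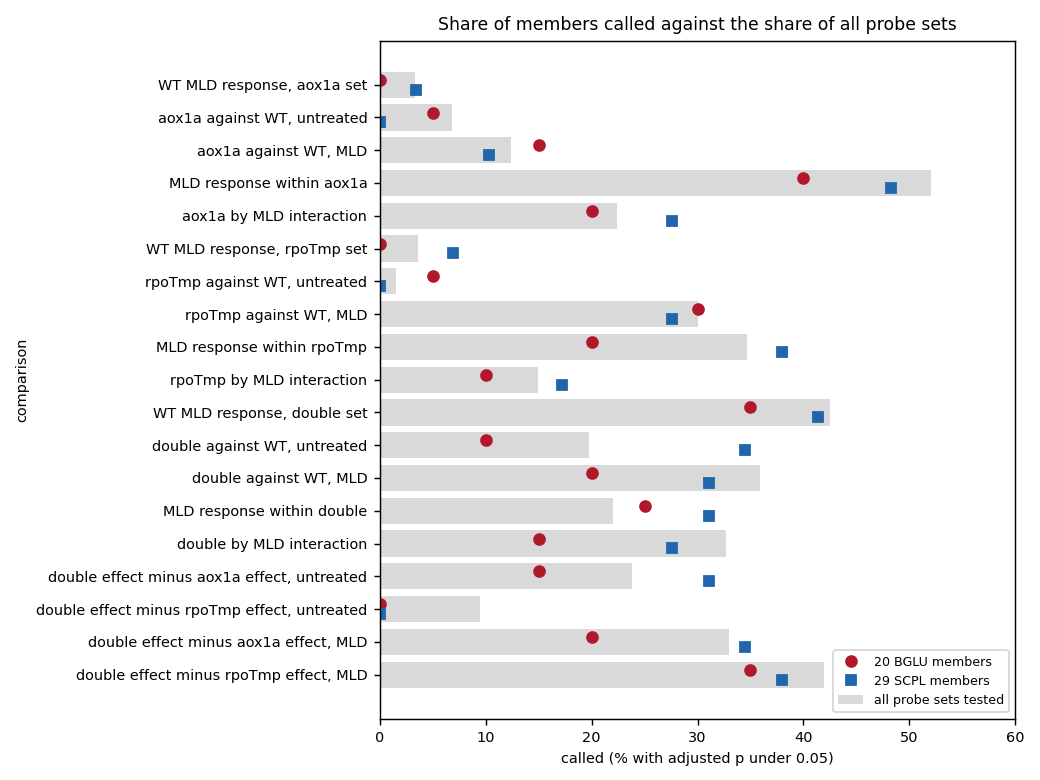
Percentage of probe sets with an adjusted p under 0.05 in each of 19 comparisons, for all 22746 probe sets (grey bars), 20 BGLU members (red circles) and 29 SCPL members (blue squares). The symbols lie on both sides of the bar tops, from near 0 in the unstressed or wild-type comparisons of the first 2 sets to 40 and 48.3% in the MLD response within aox1a.

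The calls of the BGLU family ran mostly downward in the single mutants and in both directions in the double mutant set. In the wild type of the aox1a and rpoTmp sets, MLD moved none of the 20 BGLU members in limma, against 3.35% and 3.61% of all probe sets, with 4 and 3 members at an unadjusted p under 0.05. Within stressed aox1a 1 member rose and 7 fell, where 24.8% of all probe sets rose and 27.2% fell. Within rpoTmp none rose and 4 fell, a share of 20% against 34.7% of all probe sets in either direction (18.0% higher and 16.7% lower). In the wild type of the double mutant set 6 rose and 1 fell (background 18.3% and 24.2%), and within the double mutant 3 rose and 2 fell (background 10.2% and 11.9%). Against the stressed wild type, 3 members were lower in aox1a, 6 in rpoTmp and 4 in the double mutant, and none was higher (background for lower calls 6.14%, 14.3% and 17.1%, and for higher calls 6.26%, 15.7% and 18.8%). Without stress, BGLU43 was higher in aox1a (background for higher and lower calls 3.28% and 3.57%) and BGLU42 was lower in rpoTmp (0.901% and 0.651%). In the untreated double mutant BGLU44 was higher and BGLU42 lower (background 10.1% and 9.61%). The MLD response of the mutant was below that of wild type at 4 members in aox1a and 2 in rpoTmp, and above it at 1 and below it at 2 in the double mutant. The background for these interactions was 22.4%, 14.9% and 32.6% in either direction.

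BGLU16 (AT3G60130) fell furthest of the 20. In the aox1a set its log2 intensity was 8.44, 7.44 and 7.92 in untreated and 6.54, 6.38 and 7.38 in stressed wild type, 9.13, 9.17, 8.89 and 9.07 in the untreated mutant, and 4.57 and 5.81 in stressed line 1 with 4.93 and 5.56 in stressed line 2. All 4 stressed mutant arrays lay below every other array of the set. Within aox1a it fell by 14.4-fold (log2 change -3.85 ± 0.34, SE, adjusted p = 5.71e-05), and under MLD it was 2.93-fold lower (log2 difference -1.55 ± 0.37, SE, adjusted p = 0.0266) than in wild type. The wild type of that set changed by -1.17 ± 0.39 (SE, adjusted p = 0.149). In the rpoTmp set the stressed mutant arrays read 5.31 and 5.12 for line 1 and 6.97 and 6.22 for line 2, against 8.81, 8.71 and 8.44 in stressed wild type and 8.68, 8.43, 9.07 and 9.59 in the untreated mutant, again with no overlap. It fell by 8.21-fold (log2 change -3.04 ± 0.18, SE, adjusted p = 3.96e-06) and was 6.71-fold lower (log2 difference -2.75 ± 0.19, SE, adjusted p = 1.68e-05) than in stressed wild type. The response differed from that of wild type by -2.68 ± 0.52 (SE, adjusted p = 0.0106) in aox1a and by -2.33 ± 0.28 (SE, adjusted p = 0.000981) in rpoTmp. All 4 untreated aox1a arrays lay above every untreated wild-type array of that set, a difference that was not called. The interaction in aox1a holds this untreated part beside the difference under MLD. In fits of 1 line, lost calls of BGLU16 within a set were the difference under MLD in the aox1a set with line 1 (-1.58, adjusted p = 0.0987) and the difference under MLD in the aox1a set with line 2 (-1.53, adjusted p = 0.108). So was the interaction in the aox1a set with line 2 (-2.57, adjusted p = 0.0669). Leaving out 1 array ended the BGLU16 call for the difference under MLD in the aox1a set (without line 1 MLD replicate 1, line 2 MLD replicate 1, wild-type MLD replicates 1 or 3, adjusted p up to 0.0868).

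BGLU16 also fell in both genotypes of the double mutant set. Its wild type read 9.22, 8.98 and 9.004 untreated and 7.03, 7.45 and 6.09 under MLD, and the double mutant 8.74, 8.54 and 8.70 untreated and 7.35, 7.27 and 7.35 under MLD. The stressed double mutant arrays lay within the range of the stressed wild type. The wild type fell by 4.63-fold (log2 change -2.21 ± 0.27, SE, adjusted p = 0.000110) and the double mutant fell by 2.53-fold (log2 change -1.34 ± 0.27, SE, adjusted p = 0.00652). The difference between both responses was 0.87 ± 0.38 (SE, adjusted p = 0.122), and that under MLD 0.46 ± 0.27 (SE, adjusted p = 0.239). The effect of the genotype under MLD, mutant minus wild type, was higher in the double mutant than in aox1a by 2.02 ± 0.43 (SE, adjusted p = 0.000540) and than in rpoTmp by 3.21 ± 0.43 (SE, adjusted p = 7.73e-07).

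BGLU40 (AT1G26560) and BGLU44 (AT3G18080) were lower after MLD in aox1a and in rpoTmp and higher after it in both genotypes of the double mutant set. The difference in MLD response between sets was not tested. BGLU40 read 8.92, 8.63 and 8.85 in untreated and 8.69, 8.95 and 8.62 in stressed wild type of the rpoTmp set, and 8.22, 7.45, 8.77 and 8.09 in untreated against 6.38, 6.40, 5.85 and 5.89 in stressed rpoTmp. The wild-type ranges overlapped, while every stressed mutant array lay below all others. BGLU40 fell by 4.00-fold (log2 change -2.0 ± 0.19, SE, adjusted p = 3.95e-05) in rpoTmp and was 6.17-fold lower (log2 difference -2.63 ± 0.20, SE, adjusted p = 2.45e-05) than in stressed wild type, and the interaction was -1.96 ± 0.28 (SE, adjusted p = 0.00227). In aox1a it read 7.83, 7.44, 7.85 and 7.26 untreated and 5.43, 5.54, 6.03 and 6.37 under MLD and fell by 3.37-fold (log2 change -1.75 ± 0.44, SE, adjusted p = 0.00915). The stressed aox1a arrays overlapped with those of stressed wild type at 6.37, 5.65 and 6.17, and the difference was -0.22 ± 0.48 (SE, adjusted p = 0.842).

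BGLU40 in the double mutant set read 6.67, 6.58 and 6.96 in untreated and 8.23, 8.06 and 8.27 in stressed wild type, and 6.08, 6.30 and 6.93 in the untreated and 7.88, 7.91 and 8.14 in the stressed double mutant. Stressed arrays of both genotypes lay above all untreated ones. It rose by 2.73-fold (log2 change 1.45 ± 0.20, SE, adjusted p = 0.000207) in wild type and rose by 2.91-fold (log2 change 1.54 ± 0.20, SE, adjusted p = 0.000546) in the double mutant, with an interaction of 0.09 ± 0.28 (SE, adjusted p = 0.874). The untreated wild type of the aox1a set was spread from 5.03 to 7.27, the lowest value coming from the array that stood apart. The BGLU40 call within a set lost in fits of 1 line was the response of aox1a with line 2 (-1.35, adjusted p = 0.197).

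BGLU44, which is known to prefer mannosides as substrates, lay between 9.28 and 12.54 over the 40 arrays. In the aox1a set it read 12.10, 12.19, 12.11 and 12.40 in the untreated mutant and 10.34, 10.92, 10.82 and 10.72 in the stressed mutant, against 11.97, 11.998 and 11.90 in stressed wild type. The stressed mutant lay below both without overlap. It fell by 2.83-fold (log2 change -1.501 ± 0.13, SE, adjusted p = 5.69e-05) within aox1a, was 2.39-fold lower (log2 difference -1.26 ± 0.14, SE, adjusted p = 0.00152) than in stressed wild type, and had an interaction of -1.13 ± 0.20 (SE, adjusted p = 0.00833). In stressed rpoTmp the arrays of each line were far apart, at 11.56 and 9.28 in line 1 and 9.82 and 11.13 in line 2, against 11.58, 11.88, 11.95 and 12.16 without stress. The response was -1.45 ± 0.46 (SE, adjusted p = 0.0341). Stressed wild type of that set, at 11.19, 11.32 and 11.86, overlapped with the stressed mutant. Neither the difference under MLD nor the interaction was called for BGLU44 in rpoTmp. BGLU44 in the double mutant set went from 10.39, 10.63 and 10.65 to 12.18, 11.93 and 11.58 in wild type and from 11.24, 11.36 and 11.35 to 11.89, 12.17 and 12.51 in the mutant, with stressed arrays above untreated arrays of the same genotype. It rose by 2.53-fold (log2 change 1.34 ± 0.18, SE, adjusted p = 0.000176) in wild type, rose by 1.83-fold (log2 change 0.87 ± 0.18, SE, adjusted p = 0.00647) in the double mutant, and was 1.70-fold higher (log2 difference 0.76 ± 0.18, SE, adjusted p = 0.0146) in the untreated double mutant than in wild type. With 1 line in place of both, the lost BGLU44 call within a set was the response of rpoTmp with line 1 (-1.31, adjusted p = 0.227). With 1 array fewer, BGLU44 lost its call for the response of rpoTmp (without line 1 MLD replicate 2, line 1 untreated replicates 1 or 2, line 2 MLD replicate 1, line 2 untreated replicates 1 or 2, adjusted p up to 0.115) and the untreated difference in the double mutant set (without wild-type untreated replicate 1, adjusted p up to 0.0556).

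BGLU33 (AT2G32860) was lower in the stressed mutant than in stressed wild type in the aox1a and double mutant sets. In stressed wild type of the aox1a set it read 10.04, 10.26 and 9.62, in aox1a line 1 7.99 and 7.26 and in line 2 9.08 and 8.33. No mutant array reached the wild-type range. The difference was -1.81 ± 0.25 (SE, adjusted p = 0.00356), or 3.50-fold, and the interaction -1.99 ± 0.36 (SE, adjusted p = 0.00840). Line 1 lay below all untreated mutant arrays (9.01, 8.92, 9.01 and 9.46), whereas line 2 overlapped with them. The stressed wild type of the double mutant set read 10.55, 10.08 and 10.64 and the stressed mutant 9.10, 8.92 and 9.18, and the mutant was 2.56-fold lower (log2 difference -1.36 ± 0.13, SE, adjusted p = 4.37e-05). There BGLU33 rose by 1.37-fold (log2 change 0.46 ± 0.13, SE, adjusted p = 0.0180) in wild type and fell by 1.43-fold (log2 change -0.52 ± 0.13, SE, adjusted p = 0.0189) in the double mutant, with an interaction of -0.97 ± 0.19 (SE, adjusted p = 0.00276). In stressed rpoTmp the lines lay on both sides of the wild type (8.78, 7.97 and 8.17), line 1 at 9.36 and 9.07 and line 2 at 7.74 and 7.87, and the difference was 0.20 ± 0.19 (SE, adjusted p = 0.531). The BGLU33 calls within a set that did not hold in 1 line were the difference under MLD in the aox1a set with line 2 (-1.27, adjusted p = 0.0821) and the response of aox1a with line 2 (-0.53, adjusted p = 0.258). So was the interaction in the aox1a set with line 2 (-1.58, adjusted p = 0.0869). Removing 1 array ended the call of BGLU33 for the wild-type response in the double mutant set (without wild-type MLD replicates 1 or 3, wild-type untreated replicates 2 or 3, adjusted p up to 0.0673) and the response of the double mutant (without double mutant MLD replicate 2, double mutant untreated replicates 1 or 2, adjusted p up to 0.0659).

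BGLU47 (AT4G21760) belongs to the subgroup of BGLU45 and BGLU46, which release monolignols, the building blocks of lignin, from their glucosides. The rise of BGLU47 under MLD was called in aox1a and in both genotypes of the double mutant set. It was called lower in the stressed rpoTmp and double mutants than in their wild types. In the wild types of the other sets stressed arrays also lay above untreated ones, but no call was made. Their ranges were 6.66 to 7.25 untreated and 7.38 to 7.82 under MLD in the aox1a set. In the rpoTmp set they were 4.79 to 6.27 and 6.91 to 7.24, a log2 change of 1.77. The wild type of the double mutant set went from 4.29, 4.69 and 4.34 to 6.99, 7.03 and 7.31 and the double mutant from 4.06, 4.65 and 4.57 to 5.31, 5.16 and 5.80. Stressed mutant arrays lay between the untreated arrays and those of stressed wild type. It rose by 6.36-fold (log2 change 2.67 ± 0.21, SE, adjusted p = 6.3e-06) in wild type and rose by 2.00-fold (log2 change 1.00 ± 0.21, SE, adjusted p = 0.00716) in the double mutant. Under MLD it was 3.22-fold lower (log2 difference -1.69 ± 0.21, SE, adjusted p = 0.000169) in the mutant, and the interaction was -1.67 ± 0.29 (SE, adjusted p = 0.00172). In the rpoTmp set the stressed wild type read 7.24, 6.91 and 7.11, line 1 5.79 and 6.45 and line 2 5.44 and 4.203, so that all 4 mutant arrays were lower. The mutant was 3.07-fold lower (log2 difference -1.62 ± 0.41, SE, adjusted p = 0.0133). In aox1a it rose by 2.04-fold (log2 change 1.03 ± 0.19, SE, adjusted p = 0.00194), from 6.84, 6.68, 6.81 and 6.86 to 7.93, 8.05, 8.08 and 7.26, and under MLD its difference from wild type was 0.21 ± 0.21 (SE, adjusted p = 0.603). In fits of 1 line, lost calls of BGLU47 within a set were the response of aox1a with line 2 (0.84, adjusted p = 0.0855) and the difference under MLD in the rpoTmp set with line 1 (-0.97, adjusted p = 0.175).

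BGLU42 (AT5G36890), which in roots releases the coumarins that mobilise iron and takes part in induced systemic resistance, was lower in rpoTmp and in the untreated double mutant. Under MLD it read 7.09, 7.21 and 7.20 in wild type and 6.11, 6.27, 6.52 and 6.40 in rpoTmp, with no overlap and 1.80-fold lower (log2 difference -0.84 ± 0.11, SE, adjusted p = 0.000305). Untreated arrays read 7.42, 7.14 and 7.13 in wild type and 6.75, 6.40, 6.90 and 6.71 in rpoTmp, also without overlap, a difference of -0.54 ± 0.11 (SE, adjusted p = 0.0415). It was the 1 member of both families called in untreated rpoTmp. The untreated wild type of the double mutant set read 7.32, 7.52 and 7.21 and the mutant 6.39, 6.71 and 6.81, which was 1.65-fold lower (log2 difference -0.72 ± 0.13, SE, adjusted p = 0.00437). Under MLD the mutant at 7.06, 6.82 and 6.69 overlapped with wild type at 7.05, 6.94 and 7.12, and the interaction was 0.54 ± 0.19 (SE, adjusted p = 0.0499). In aox1a its values lay between 6.67 and 7.29, with none of the 4 comparisons called. Calls of BGLU42 within a set lost in fits of 1 line were the untreated difference in the rpoTmp set with line 1 (-0.65, adjusted p = 0.0546) and the untreated difference in the rpoTmp set with line 2 (-0.42, adjusted p = 0.196). So were the response of rpoTmp with line 1 (-0.39, adjusted p = 0.106) and the response of rpoTmp with line 2 (-0.34, adjusted p = 0.0775). Without 1 array, the BGLU42 call was lost for the untreated difference in the rpoTmp set (in 12 of 14 fits, all but those without line 1 untreated replicate 1, line 2 untreated replicate 1, adjusted p up to 0.135) and the response of rpoTmp (without line 1 MLD replicate 1, line 1 untreated replicate 1, line 2 untreated replicate 1, adjusted p up to 0.0580). So did that for the interaction in the double mutant set (in 9 of 12 fits, all but those without double mutant MLD replicate 3, double mutant untreated replicate 3, wild-type untreated replicate 3, adjusted p up to 0.110).

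BGLU25 (AT3G03640) was lower than wild type in the stressed double mutant, at 6.72, 6.71 and 6.70 against 7.49, 7.63 and 7.32, or 1.71-fold lower (log2 difference -0.77 ± 0.16, SE, adjusted p = 0.00447). The 3 stressed mutant arrays were nearly equal and below the whole wild-type range. In that wild type it rose by 1.59-fold (log2 change 0.67 ± 0.16, SE, adjusted p = 0.00824). In stressed rpoTmp the lines differed, at 6.44 and 5.95 in line 1 and 7.09 and 7.77 in line 2, against 7.64, 7.88 and 7.94 in wild type, and the ranges overlapped although the difference was called (-1.01 ± 0.23, SE, adjusted p = 0.00812). With 1 line in place of both, the lost BGLU25 call within a set was the difference under MLD in the rpoTmp set with line 2 (-0.39, adjusted p = 0.359).

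The remaining called BGLU members were dim. BGLU43 (AT3G18070), the neighbour of BGLU44 in the gene table, read 3.16 and 3.30 in untreated aox1a line 1 but 2.86 and 2.87 in line 2, against 2.87, 2.81 and 2.84 in wild type. Its difference of 0.21 ± 0.04 (SE, adjusted p = 0.0331) was the single BGLU call in untreated aox1a, and its response there was -0.32 ± 0.04 (SE, adjusted p = 0.000184), while in stressed rpoTmp its difference from wild type was -0.35 ± 0.11 (SE, adjusted p = 0.0312). The interaction in aox1a was -0.28 ± 0.06 (SE, adjusted p = 0.0116). With the replicate number as a block (replicate block) the untreated difference was 0.21 (adjusted p = 0.0512). The remaining dim calls are named after their values were seen. In stressed aox1a the changes of BGLU27 (-0.06 ± 0.02, SE, adjusted p = 0.0217) and BGLU45 (-0.07 ± 0.03, SE, adjusted p = 0.0459) were called at levels under log2 3. BGLU46, a monolignol glucosidase, read 3.36, 3.44 and 4.15 in stressed wild type of the double mutant set against 3.04, 3.03 and 3.07 in the mutant, a difference of -0.61 ± 0.17 (SE, adjusted p = 0.0206) without overlap, and MLD changed it by 0.52 ± 0.17 (SE, adjusted p = 0.0347) in that wild type. The BGLU43 calls within a set that did not hold in 1 line were the untreated difference in the aox1a set with line 2 (0.03, adjusted p = 0.730) and the response of aox1a with line 2 (-0.13, adjusted p = 0.0660). So were the interaction in the aox1a set with line 2 (-0.10, adjusted p = 0.345) and the difference under MLD in the rpoTmp set with line 1 (-0.34, adjusted p = 0.0929). So was the difference under MLD in the rpoTmp set with line 2 (-0.36, adjusted p = 0.0823). Removing 1 array ended the call of BGLU43 for the untreated difference in the aox1a set (without line 1 untreated replicate 2, line 2 MLD replicates 1 or 2, line 2 untreated replicate 1, wild-type MLD replicate 3, wild-type untreated replicates 2 or 3, adjusted p up to 0.0958) and the difference under MLD in the rpoTmp set (without line 1 MLD replicates 1 or 2, line 2 MLD replicate 2, wild-type MLD replicates 1 or 3, adjusted p up to 0.116). Leaving out 1 array ended the BGLU46 call for the difference under MLD in the double mutant set (without double mutant MLD replicate 2, adjusted p up to 0.0562) and the wild-type response in the double mutant set (without wild-type untreated replicates 1 or 2, adjusted p up to 0.101). The calls of BGLU27 and BGLU45 were lost with either line alone and in 4 and 10 of the 14 fits that left out 1 array.

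**Figure D3:**
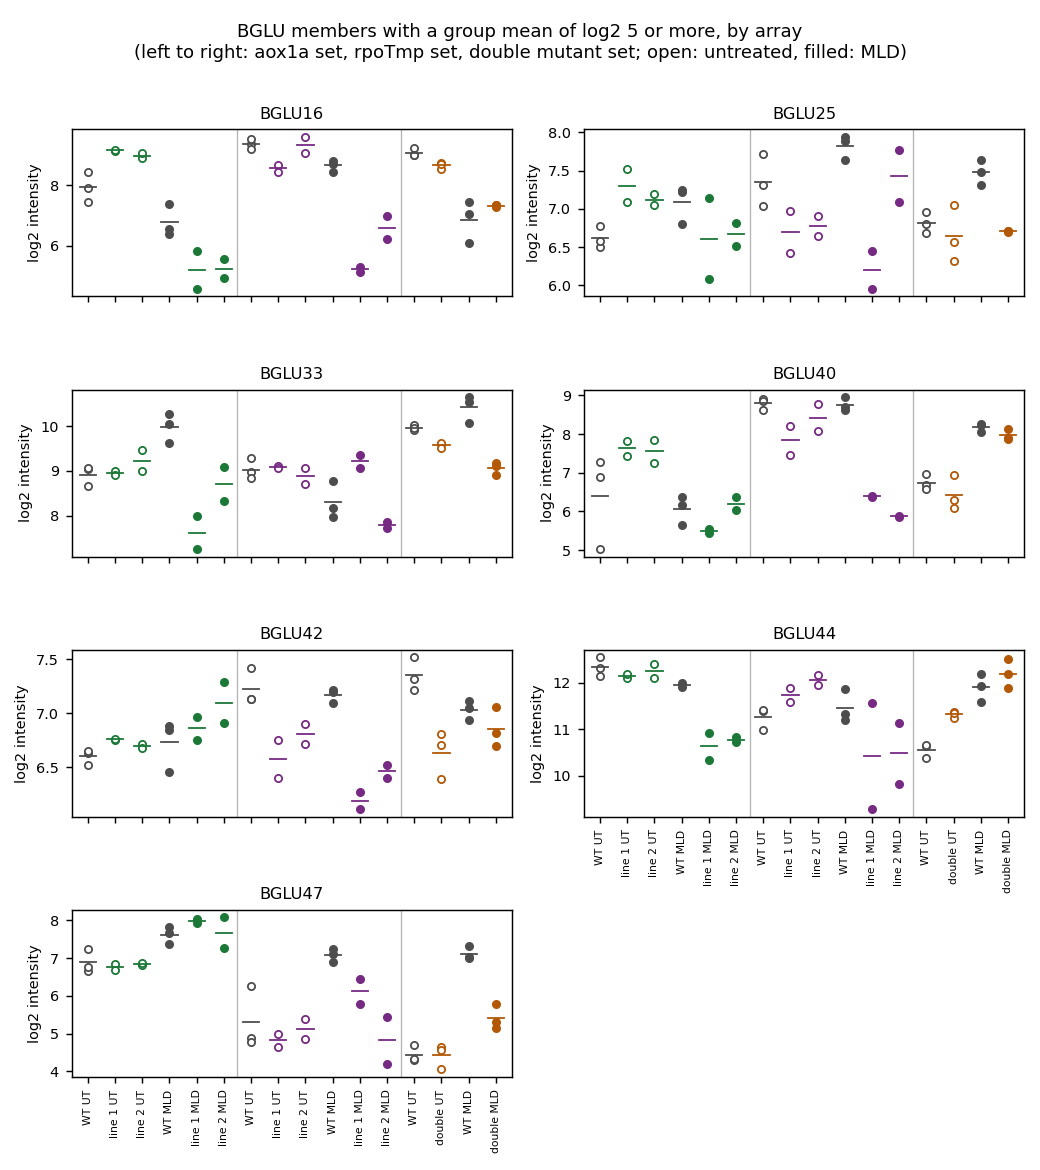
Log2 intensity of each array for the 7 BGLU members with a group mean of log2 5 or more, in 16 groups from left to right (aox1a, rpoTmp and double mutant sets; grey wild type, green aox1a, purple rpoTmp, orange double mutant; open untreated, filled MLD), with the group mean as a bar and its own vertical scale in each panel. BGLU16 drops to between 4.57 and 6.97 in the stressed single mutants. BGLU40 and BGLU44 drop there from the level of the untreated mutants but climb with MLD in the double mutant set.

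In the SCPL family more members fell than rose in the stressed single mutants, and both directions were seen in the double mutant set. In the wild types of the aox1a and rpoTmp sets MLD lowered 1 and 2 members and raised none (background for lower calls 1.27% and 1.99%). Within aox1a 3 rose and 11 fell, and within rpoTmp 1 rose and 10 fell; for all probe sets the shares were 24.8% and 27.2%, and 18.0% and 16.7%. Against stressed wild type, 1 was higher and 2 lower in aox1a, and 1 higher and 7 lower in rpoTmp (background 12.4% and 30.0% in either direction). MLD in the double mutant set raised 4 and lowered 8 in wild type and raised 6 and lowered 3 in the mutant (background 42.5% and 22.0%). The double mutant differed from wild type at 2 higher and 8 lower members untreated and at 5 higher and 4 lower under MLD (background 19.7% and 35.9%). No SCPL member was called by limma in untreated aox1a or untreated rpoTmp, where 6.85% and 1.55% of all probe sets were and where 5 and 6 members had an unadjusted p under 0.05. For SCPL the interactions were higher at 2 and lower at 6 members in aox1a, higher at 1 and lower at 4 in rpoTmp, and higher at 6 and lower at 2 in the double mutant. Of all probe sets, 12.5% were higher and 9.89% lower in the first, 6.91% and 8.03% in the second and 16.8% and 15.9% in the third. The count of 8 in aox1a was 1 with line 1 alone, 0 with line 2 alone and down to 4 without 1 array. Among the 6 members spelled in capitals alone, 1 rose and 3 fell within aox1a and 3 fell within rpoTmp.

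The gene scpl48 (AT3G45010) rose in both stressed single mutants. In aox1a it read 8.25, 8.34, 8.38 and 8.12 untreated, and 11.53 and 11.16 in line 1 and 10.78 and 10.19 in line 2 under MLD, against 8.16, 9.08 and 9.05 in stressed wild type. All 4 stressed mutant arrays lay above every other array of the set. It rose by 6.22-fold (log2 change 2.64 ± 0.35, SE, adjusted p = 0.000371) and was 4.43-fold higher (log2 difference 2.15 ± 0.38, SE, adjusted p = 0.00936) than in stressed wild type. In rpoTmp it went from 8.23, 8.28, 7.72 and 8.15 to 9.84 and 9.10 in line 1 and 10.27 and 10.11 in line 2, above the stressed wild type at 8.44, 8.80 and 8.09. There it rose by 3.33-fold (log2 change 1.74 ± 0.19, SE, adjusted p = 0.000106) and was 2.61-fold higher (log2 difference 1.39 ± 0.21, SE, adjusted p = 0.000860). The interaction was 2.31 ± 0.54 (SE, adjusted p = 0.0193) in aox1a and 1.41 ± 0.30 (SE, adjusted p = 0.0122) in rpoTmp. It was called in 8 of the 12 comparisons without interactions and differences, the most of any member.

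The level of scpl48 in the double mutant was below wild type, at 7.46, 7.46 and 7.47 against 8.09, 7.68 and 7.90 untreated and 7.97, 7.64 and 8.03 against 8.30, 8.38 and 8.26 under MLD. The ranges did not overlap in either treatment. The differences were -0.43 ± 0.12 (SE, adjusted p = 0.0308) and -0.44 ± 0.12 (SE, adjusted p = 0.0151), and MLD responses of wild type and mutant were nearly equal at 0.43 ± 0.12 (SE, adjusted p = 0.0144) and 0.42 ± 0.12 (SE, adjusted p = 0.0309). The effect of the genotype under MLD was lower in the double mutant than in aox1a by a log2 difference of -2.58 ± 0.39 (SE, adjusted p = 1.33e-05), and than in rpoTmp by -1.82 ± 0.39 (SE, adjusted p = 0.000390). The array of untreated wild type that stood apart in the aox1a set read 9.41 against 7.88 and 8.03 for the other two. Without it the aox1a calls for scpl48 were kept. Calls of scpl48 within a set lost in fits of 1 line were the difference under MLD in the aox1a set with line 2 (1.72, adjusted p = 0.148) and the interaction in the aox1a set with line 1 (2.72, adjusted p = 0.0509). So were the interaction in the aox1a set with line 2 (1.90, adjusted p = 0.179) and the interaction in the rpoTmp set with line 1 (0.89, adjusted p = 0.224). Without 1 array, the scpl48 call was lost for the untreated difference in the double mutant set (without double mutant untreated replicates 1, 2 or 3, wild-type untreated replicates 1 or 3, adjusted p up to 0.101) and the response of the double mutant (without double mutant MLD replicates 1 or 3, double mutant untreated replicates 1, 2 or 3, adjusted p up to 0.106).

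Among members that fell, scpl25 (AT3G02110) was called lower than wild type in both stressed single mutants. It read 4.80, 4.17, 5.00 and 5.30 in stressed aox1a against 6.84, 6.08 and 6.24 in wild type, and 5.00, 5.02, 5.09 and 4.37 in stressed rpoTmp against 6.80, 6.86 and 6.73. No stressed mutant array reached its wild type or the untreated mutants (6.39, 6.46, 6.22 and 6.45 in aox1a and 6.93, 6.43, 7.02 and 6.58 in rpoTmp). The mutants were 2.97-fold lower (log2 difference -1.57 ± 0.24, SE, adjusted p = 0.00484) and 3.81-fold lower (log2 difference -1.93 ± 0.20, SE, adjusted p = 0.000113) than wild type, and within them it changed by -1.56 ± 0.22 (SE, adjusted p = 0.000453) and -1.87 ± 0.19 (SE, adjusted p = 5.86e-05). The interactions were -1.76 ± 0.33 (SE, adjusted p = 0.0102) and -1.51 ± 0.29 (SE, adjusted p = 0.00757). The gene scpl25 in the double mutant set read 6.87, 7.04 and 6.82 in wild type and 6.17, 6.47 and 6.40 in the mutant untreated, a difference of -0.56 ± 0.15 (SE, adjusted p = 0.0245). Under MLD the mutant, at 7.00, 6.62 and 6.498, overlapped with wild type at 6.66, 6.36 and 6.72, and the interaction was 0.69 ± 0.21 (SE, adjusted p = 0.0292). With 1 line in place of both, lost calls of scpl25 within a set were the difference under MLD in the aox1a set with line 2 (-1.24, adjusted p = 0.0806) and the interaction in the aox1a set with line 2 (-1.38, adjusted p = 0.106). With 1 array fewer, scpl25 lost its call for the untreated difference in the double mutant set (without double mutant untreated replicates 1 or 3, wild-type untreated replicates 1 or 2, adjusted p up to 0.0842) and the interaction in the double mutant set (without double mutant untreated replicate 1, wild-type MLD replicate 2, wild-type untreated replicate 2, adjusted p up to 0.0695).

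SCPL45 (AT1G28110) showed the largest fall of the family. Untreated aox1a read 6.55, 6.37, 6.64 and 6.15 and stressed aox1a 4.14, 4.09, 3.83 and 4.09, so that all stressed arrays were lower by over 2 log2 units. It fell by 5.24-fold (log2 change -2.39 ± 0.28, SE, adjusted p = 0.000193). The wild type of that set was spread, at 5.86, 4.61 and 5.51 untreated and 5.55, 4.66 and 5.00 under MLD, and aox1a differed from stressed wild type by -1.03 ± 0.30 (SE, adjusted p = 0.0584), with an interaction of -2.14 ± 0.43 (SE, adjusted p = 0.0119). Untreated aox1a lay above untreated wild type without overlap, a difference that was not called but that enters the interaction. In rpoTmp it went from 7.10, 6.68, 7.12 and 6.73 to 5.56, 4.65, 4.54 and 5.40, below the stressed wild type at 6.16, 6.32 and 6.11, and fell by 3.66-fold (log2 change -1.87 ± 0.24, SE, adjusted p = 0.000265). SCPL45 fell by 2.99-fold (log2 change -1.58 ± 0.12, SE, adjusted p = 7.03e-06) in wild type of the double mutant set and fell by 1.53-fold (log2 change -0.61 ± 0.12, SE, adjusted p = 0.00664) in the mutant, from 7.29, 7.17 and 7.04 to 5.54, 5.83 and 5.40 and from 6.61, 6.52 and 6.76 to 6.01, 6.18 and 5.87. The mutant was below wild type untreated and above it under MLD, with no overlap either time, and the interaction was 0.97 ± 0.18 (SE, adjusted p = 0.00219). The SCPL45 calls within a set that did not hold in 1 line were the interaction in the aox1a set with line 1 (-2.09, adjusted p = 0.0535) and the interaction in the aox1a set with line 2 (-2.18, adjusted p = 0.0909). Removing 1 array ended the call of SCPL45 for the untreated difference in the double mutant set (without double mutant untreated replicate 2, wild-type untreated replicate 1, adjusted p up to 0.0563) and the difference under MLD in the double mutant set (without double mutant MLD replicate 2, wild-type MLD replicates 1 or 3, adjusted p up to 0.0825).

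For scpl26 (AT2G35780) and scpl42 (AT5G42240) the double mutant changed sides with the treatment. In scpl26 the double mutant read 8.55, 8.59 and 8.69 against 9.22, 9.31 and 9.35 in wild type untreated, and 8.68, 8.89 and 8.97 against 8.29, 8.51 and 8.00 under MLD. In scpl42 it read 6.99, 7.11 and 7.07 against 7.53, 7.68 and 7.82, and 7.66, 7.45 and 7.42 against 6.39, 6.62 and 6.56. For both genes the mutant was below wild type without stress and above it with stress, with no overlap. MLD lowered both in wild type, where scpl26 fell by 2.04-fold (log2 change -1.03 ± 0.12, SE, adjusted p = 8.13e-05) and scpl42 fell by 2.23-fold (log2 change -1.15 ± 0.09, SE, adjusted p = 8.79e-06). Within the double mutant scpl42 rose by 1.37-fold (log2 change 0.45 ± 0.09, SE, adjusted p = 0.00762) and scpl26 changed by 0.24 ± 0.12 (SE, adjusted p = 0.216). The interactions were 1.27 ± 0.17 (SE, adjusted p = 0.000392) for scpl26 and 1.61 ± 0.13 (SE, adjusted p = 4.15e-05) for scpl42.

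In the single mutants both genes were lower after MLD. The level of scpl26 went from 9.43, 9.51, 9.50 and 9.08 to 7.75, 8.00, 7.86 and 8.14 in aox1a and from 9.10, 8.95, 9.54 and 9.27 to 7.98, 8.13, 7.78 and 8.52 in rpoTmp. Neither pair of ranges overlapped, and the changes were -1.44 ± 0.20 (SE, adjusted p = 0.000391) and -1.12 ± 0.15 (SE, adjusted p = 0.000268). In stressed rpoTmp scpl26 was 2.33-fold lower (log2 difference -1.22 ± 0.16, SE, adjusted p = 0.000364) than in wild type (9.24, 9.29 and 9.43), while in aox1a its difference from stressed wild type was -0.21 ± 0.21 (SE, adjusted p = 0.599). For scpl42 the changes were -0.96 ± 0.18 (SE, adjusted p = 0.00219) in aox1a and -0.82 ± 0.21 (SE, adjusted p = 0.0139) in rpoTmp, and neither mutant was called against stressed wild type. The interactions of scpl26 were -0.98 ± 0.30 (SE, adjusted p = 0.0462) in aox1a and -0.95 ± 0.22 (SE, adjusted p = 0.0200) in rpoTmp. In fits of 1 line, lost calls of scpl26 within a set were the interaction in the aox1a set with line 1 (-1.13, adjusted p = 0.0840) and the interaction in the aox1a set with line 2 (-0.82, adjusted p = 0.264). So was the interaction in the rpoTmp set with line 2 (-1.09, adjusted p = 0.0506). Leaving out 1 array ended the scpl26 call for the interaction in the aox1a set (in 11 of 14 fits, all but those without line 2 untreated replicate 2, wild-type MLD replicate 2, wild-type untreated replicate 1, adjusted p up to 0.114) and the interaction in the rpoTmp set (without wild-type MLD replicate 3, wild-type untreated replicate 1, adjusted p up to 0.0534). Calls of scpl42 within a set lost in fits of 1 line were the response of aox1a with line 2 (-0.74, adjusted p = 0.0667) and the response of rpoTmp with line 2 (-0.94, adjusted p = 0.0846).

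SCPL27 (AT3G07990) was lower in every comparison in which it was called, 7 of the 12. The double mutant read 4.94, 5.33 and 4.99 untreated and 4.15, 4.38 and 3.78 under MLD, against 5.90, 5.72 and 5.91 in untreated and 5.07, 5.17 and 5.27 in stressed wild type. The mutant lay below wild type without overlap in both treatments, by a log2 difference of -0.75 ± 0.15 (SE, adjusted p = 0.00763) and -1.06 ± 0.15 (SE, adjusted p = 0.000434). In stressed rpoTmp it read 5.19, 5.10, 5.41 and 5.33 against 6.41, 6.31 and 6.84 in wild type and was 2.40-fold lower (log2 difference -1.26 ± 0.23, SE, adjusted p = 0.00282). In aox1a it fell by 2.15-fold (log2 change -1.10 ± 0.16, SE, adjusted p = 0.000521), from 6.65, 6.82, 6.80 and 6.82 to 5.28, 5.67, 6.08 and 5.64, but its difference from stressed wild type was -0.52 ± 0.17 (SE, adjusted p = 0.0849) and the interaction -0.90 ± 0.24 (SE, adjusted p = 0.0308). With 1 line in place of both, lost calls of SCPL27 within a set were the interaction in the aox1a set with line 1 (-1.05, adjusted p = 0.0602) and the interaction in the aox1a set with line 2 (-0.74, adjusted p = 0.193). With 1 array fewer, SCPL27 lost its call for the interaction in the aox1a set (in 10 of 14 fits, all but those without line 1 MLD replicate 2, line 2 MLD replicate 1, wild-type MLD replicate 2, wild-type untreated replicate 1, adjusted p up to 0.0753).

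SCPL34 (AT5G23210) was lowered by MLD in all 3 mutants. It went from 8.12, 8.41, 8.31 and 7.73 to 6.31, 5.96, 6.30 and 6.34 in aox1a, from 8.76, 8.52, 8.66 and 8.51 to 7.62, 7.03, 7.22 and 7.78 in rpoTmp, and from 9.89, 9.77 and 9.44 to 8.73, 7.68 and 8.17 in the double mutant. In each mutant all stressed arrays lay below all untreated ones. The changes were -1.91 ± 0.25 (SE, adjusted p = 0.000337), -1.20 ± 0.19 (SE, adjusted p = 0.000945) and -1.51 ± 0.25 (SE, adjusted p = 0.00234). No interaction was called for SCPL34, and in the wild type of the double mutant set it changed by -1.06 ± 0.25 (SE, adjusted p = 0.00711). Untreated double mutant plants, at 9.89, 9.77 and 9.44, were above wild type at 8.86, 8.61 and 8.45, or 2.09-fold higher (log2 difference 1.06 ± 0.25, SE, adjusted p = 0.0163). Removing 1 array ended the call of SCPL34 for the untreated difference in the double mutant set (without double mutant untreated replicates 1 or 2, wild-type untreated replicate 3, adjusted p up to 0.0604).

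The level of scpl46 (AT2G33530) was 6.22, 5.68, 6.49 and 6.80 in stressed rpoTmp against 7.80, 7.60 and 7.56 in stressed wild type and 7.66, 7.71, 7.53 and 7.28 in untreated rpoTmp. Every stressed mutant array was below both. It was 2.56-fold lower (log2 difference -1.36 ± 0.13, SE, adjusted p = 8.21e-05) than wild type, and within rpoTmp it fell by 2.37-fold (log2 change -1.25 ± 0.12, SE, adjusted p = 5.68e-05). In aox1a it went from 7.48, 7.10, 7.37 and 6.92 to 6.11, 6.13, 6.20 and 6.14, a change of -1.07 ± 0.24 (SE, adjusted p = 0.00552). The interaction was -0.94 ± 0.19 (SE, adjusted p = 0.0101) in rpoTmp, and the wild type of the double mutant set changed by -0.45 ± 0.14 (SE, adjusted p = 0.0299) under MLD. In fits of 1 line, lost calls of scpl46 within a set were the response of aox1a with line 2 (-0.97, adjusted p = 0.103) and the interaction in the rpoTmp set with line 2 (-0.45, adjusted p = 0.172). Leaving out 1 array ended the scpl46 call for the wild-type response in the double mutant set (without wild-type MLD replicates 1, 2 or 3, wild-type untreated replicates 2 or 3, adjusted p up to 0.0879).

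For scpl29 (AT4G30810) the changes were smaller and opposed between sets. In aox1a it went from 8.73, 8.98, 8.78 and 8.67 to 7.82, 8.04, 7.98 and 8.12 and in rpoTmp from 9.79, 9.65, 9.86 and 9.69 to 9.35, 8.64, 8.78 and 9.36, changes of -0.80 ± 0.11 (SE, adjusted p = 0.000353) and -0.72 ± 0.18 (SE, adjusted p = 0.0115) with no overlap. The double mutant went from 8.01, 8.20 and 8.35 up to 8.51, 8.95 and 8.97, a change of 0.63 ± 0.15 (SE, adjusted p = 0.0142), and under MLD it overlapped with wild type at 8.52, 8.07 and 8.30 though the difference was called (0.51 ± 0.15, SE, adjusted p = 0.0226). The interaction was -0.69 ± 0.16 (SE, adjusted p = 0.0197) in aox1a, and stressed rpoTmp differed from wild type by -0.73 ± 0.20 (SE, adjusted p = 0.0185). Calls of scpl29 within a set lost in fits of 1 line were the interaction in the aox1a set with line 1 (-0.82, adjusted p = 0.0520) and the interaction in the aox1a set with line 2 (-0.57, adjusted p = 0.139). So was the response of rpoTmp with line 1 (-0.73, adjusted p = 0.0736). Without 1 array, the scpl29 call was lost for the interaction in the aox1a set (without wild-type MLD replicate 1, adjusted p up to 0.0549) and the difference under MLD in the rpoTmp set (without line 2 MLD replicate 1, wild-type MLD replicates 2 or 3, adjusted p up to 0.0633). So did that for the difference under MLD in the double mutant set (without double mutant MLD replicates 2 or 3, wild-type MLD replicates 2 or 3, adjusted p up to 0.0821) and the response of the double mutant (without double mutant MLD replicates 2 or 3, double mutant untreated replicate 1, adjusted p up to 0.0533).

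Like BGLU40, scpl35 (AT5G08260) was lower in stressed rpoTmp and higher after MLD in both genotypes of the double mutant set. In rpoTmp it read 9.52 and 8.55 in untreated line 1 and 9.79 and 8.62 in untreated line 2, then 7.82, 7.93, 7.70 and 7.60 under MLD, against 8.97, 8.68 and 8.83 in stressed wild type. The untreated replicates of each line were about 1 log2 unit apart, and the stressed arrays lay below all of them. It fell by 2.57-fold (log2 change -1.36 ± 0.26, SE, adjusted p = 0.00238) and was 2.10-fold lower (log2 difference -1.07 ± 0.28, SE, adjusted p = 0.0157) than wild type. In stressed aox1a it read 7.71 and 7.85 in line 1 and 8.27 and 8.32 in line 2 against 9.05, 8.61 and 8.65, a difference of -0.73 ± 0.11 (SE, adjusted p = 0.00396) without overlap. The interactions were -0.56 ± 0.15 (SE, adjusted p = 0.0292) in aox1a and -1.33 ± 0.39 (SE, adjusted p = 0.0499) in rpoTmp. In the double mutant set it went from 6.98, 7.03 and 6.52 to 8.20, 7.81 and 7.96 in wild type and from 7.19, 7.99 and 7.82 to 8.64, 8.99 and 8.68 in the mutant. It rose by 2.21-fold (log2 change 1.14 ± 0.22, SE, adjusted p = 0.00188) in wild type and rose by 2.14-fold (log2 change 1.10 ± 0.22, SE, adjusted p = 0.00589) in the mutant, and the mutant was above wild type by 0.82 ± 0.22 (SE, adjusted p = 0.0270) untreated and 0.78 ± 0.22 (SE, adjusted p = 0.0193) under MLD. With 1 line in place of both, lost calls of scpl35 within a set were the difference under MLD in the aox1a set with line 2 (-0.48, adjusted p = 0.142) and the interaction in the aox1a set with line 1 (-0.72, adjusted p = 0.0574). So were the interaction in the aox1a set with line 2 (-0.40, adjusted p = 0.278) and the interaction in the rpoTmp set with line 1 (-1.14, adjusted p = 0.107). So was the interaction in the rpoTmp set with line 2 (-1.53, adjusted p = 0.0523). With 1 array fewer, scpl35 lost its call for the interaction in the aox1a set (without line 1 MLD replicate 1, line 1 untreated replicates 1 or 2, line 2 MLD replicates 1 or 2, line 2 untreated replicate 2, wild-type untreated replicate 2, adjusted p up to 0.0637) and the difference under MLD in the rpoTmp set (without wild-type MLD replicate 1, adjusted p up to 0.0561). So did that for the interaction in the rpoTmp set (in 12 of 14 fits, all but those without line 1 untreated replicate 2, line 2 untreated replicate 2, adjusted p up to 0.105) and the untreated difference in the double mutant set (without double mutant untreated replicates 2 or 3, wild-type untreated replicates 1 or 3, adjusted p up to 0.0948). So did that for the difference under MLD in the double mutant set (without double mutant MLD replicate 2, wild-type MLD replicates 2 or 3, adjusted p up to 0.0721).

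SCPL49 (AT3G10410), which the gene table also lists as carboxypeptidase Y, a vacuolar peptidase in yeast, rose under MLD in aox1a and in both genotypes of the double mutant set. It went from 10.41, 10.27, 10.24 and 10.36 to 11.39, 11.70, 11.47 and 11.48 in aox1a and rose by 2.29-fold (log2 change 1.19 ± 0.13, SE, adjusted p = 0.000129). In the double mutant set it went from 9.63, 9.76 and 9.64 to 10.82, 10.70 and 10.80 in wild type and from 9.89, 9.80 and 9.96 to 10.30, 10.36 and 10.64 in the mutant. Stressed mutant arrays lay above untreated ones but below those of stressed wild type. It rose by 2.14-fold (log2 change 1.10 ± 0.09, SE, adjusted p = 7.27e-06) in wild type and rose by 1.46-fold (log2 change 0.55 ± 0.09, SE, adjusted p = 0.00175) in the mutant, and the interaction was -0.55 ± 0.12 (SE, adjusted p = 0.00684). In aox1a the interaction was 0.68 ± 0.20 (SE, adjusted p = 0.0379), and in rpoTmp the response was 0.16 ± 0.07 (SE, adjusted p = 0.104). The SCPL49 calls within a set that did not hold in 1 line were the interaction in the aox1a set with line 1 (0.69, adjusted p = 0.118) and the interaction in the aox1a set with line 2 (0.66, adjusted p = 0.162). Removing 1 array ended the call of SCPL49 for the interaction in the aox1a set (in 11 of 14 fits, all but those without line 1 MLD replicate 1, wild-type MLD replicate 2, wild-type untreated replicate 1, adjusted p up to 0.0932).

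The response of scpl20 (AT4G12910) was seen in the wild type of the double mutant set and not in the double mutant. Wild type went from 6.03, 6.01 and 5.42 to 7.89, 7.26 and 7.98, while the mutant read 5.92, 5.86 and 6.17 untreated and 5.73, 5.83 and 6.31 under MLD. In the mutant the stressed and untreated ranges overlapped. In wild type it rose by 3.72-fold (log2 change 1.89 ± 0.24, SE, adjusted p = 0.000132), in the mutant it changed by -0.03 ± 0.24 (SE, adjusted p = 0.962), and the interaction was -1.92 ± 0.34 (SE, adjusted p = 0.00183). Within aox1a it rose by 1.48-fold (log2 change 0.57 ± 0.12, SE, adjusted p = 0.00398), and under MLD it differed from wild type by -0.24 ± 0.13 (SE, adjusted p = 0.291) there and by 0.06 ± 0.15 (SE, adjusted p = 0.874) in rpoTmp. In fits of 1 line, the lost scpl20 call within a set was the response of aox1a with line 1 (0.45, adjusted p = 0.0914).

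The level of scpl50 (AT1G15000) fell under MLD in all 3 wild types, with 5.29, 4.15 and 4.87 going to 3.54, 3.72 and 3.34 in the aox1a set, 5.84, 5.54 and 5.24 to 4.34, 3.92 and 4.35 in the rpoTmp set and 4.15, 4.72 and 4.05 to 3.54, 3.75 and 3.95 in the double mutant set. No stressed wild-type array reached the untreated range of its set. The changes were -1.24 ± 0.26 (SE, adjusted p = 0.0396), -1.34 ± 0.22 (SE, adjusted p = 0.0183) and -0.56 ± 0.20 (SE, adjusted p = 0.0444). It was lowered in aox1a (-1.76 ± 0.22, SE, adjusted p = 0.000271) and rpoTmp (-1.22 ± 0.19, SE, adjusted p = 0.000810). In the double mutant it went up instead, from 3.30, 3.55 and 3.45 to 4.50, 4.03 and 4.04, a change of 0.76 ± 0.20 (SE, adjusted p = 0.0212) with an interaction of 1.32 ± 0.28 (SE, adjusted p = 0.00489). Without 1 array, the scpl50 call was lost for the wild-type response in the aox1a set (in 13 of 14 fits, all but those without wild-type untreated replicate 2, adjusted p up to 0.141) and the wild-type response in the rpoTmp set (without wild-type MLD replicates 1 or 2, wild-type untreated replicate 1, adjusted p up to 0.0723). So did that for the wild-type response in the double mutant set (in 9 of 12 fits, all but those without double mutant MLD replicate 1, wild-type MLD replicate 3, wild-type untreated replicate 3, adjusted p up to 0.146) and the response of the double mutant (without double mutant MLD replicate 1, double mutant untreated replicates 1 or 3, adjusted p up to 0.0716).

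Of the dim SCPL members, scpl16 (AT3G12220), from the branch of the family that holds the acyltransferases, passed log2 5 on 1 of the 40 arrays. Untreated wild type of the double mutant set read 4.97, 5.21 and 4.35, the untreated double mutant 3.64, 4.03 and 3.07, and stressed plants of either genotype no more than 3.18. The untreated wild type was above all other arrays of that set. The untreated difference was -1.27 ± 0.25 (SE, adjusted p = 0.00665), and in wild type it fell by 3.23-fold (log2 change -1.69 ± 0.25, SE, adjusted p = 0.000363). In the rpoTmp set wild type went from 3.83, 4.00 and 3.71 to 2.97, 3.01 and 3.09, a change of -0.82 ± 0.18 (SE, adjusted p = 0.0409). Named after their values were seen, scpl31 (-0.06 ± 0.02, SE, adjusted p = 0.0250) and scpl47 (-0.13 ± 0.03, SE, adjusted p = 0.00698) were called lower in stressed aox1a at levels between 2.30 and 3.64 over all arrays. Both calls were lost with line 2 alone (adjusted p = 0.244 and 0.340), and that of scpl31 in 5 of 14 fits that left out 1 array. The scpl16 interaction in the double mutant set was 1.14 ± 0.35 (SE, adjusted p = 0.0327). With 1 array fewer, scpl16 lost its call for the wild-type response in the rpoTmp set (in 10 of 14 fits, all but those without line 1 untreated replicates 1 or 2, line 2 untreated replicates 1 or 2, adjusted p up to 0.124) and the interaction in the double mutant set (in 10 of 12 fits, all but those without double mutant untreated replicate 2, wild-type untreated replicate 3, adjusted p up to 0.0740).

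**Figure D4:**
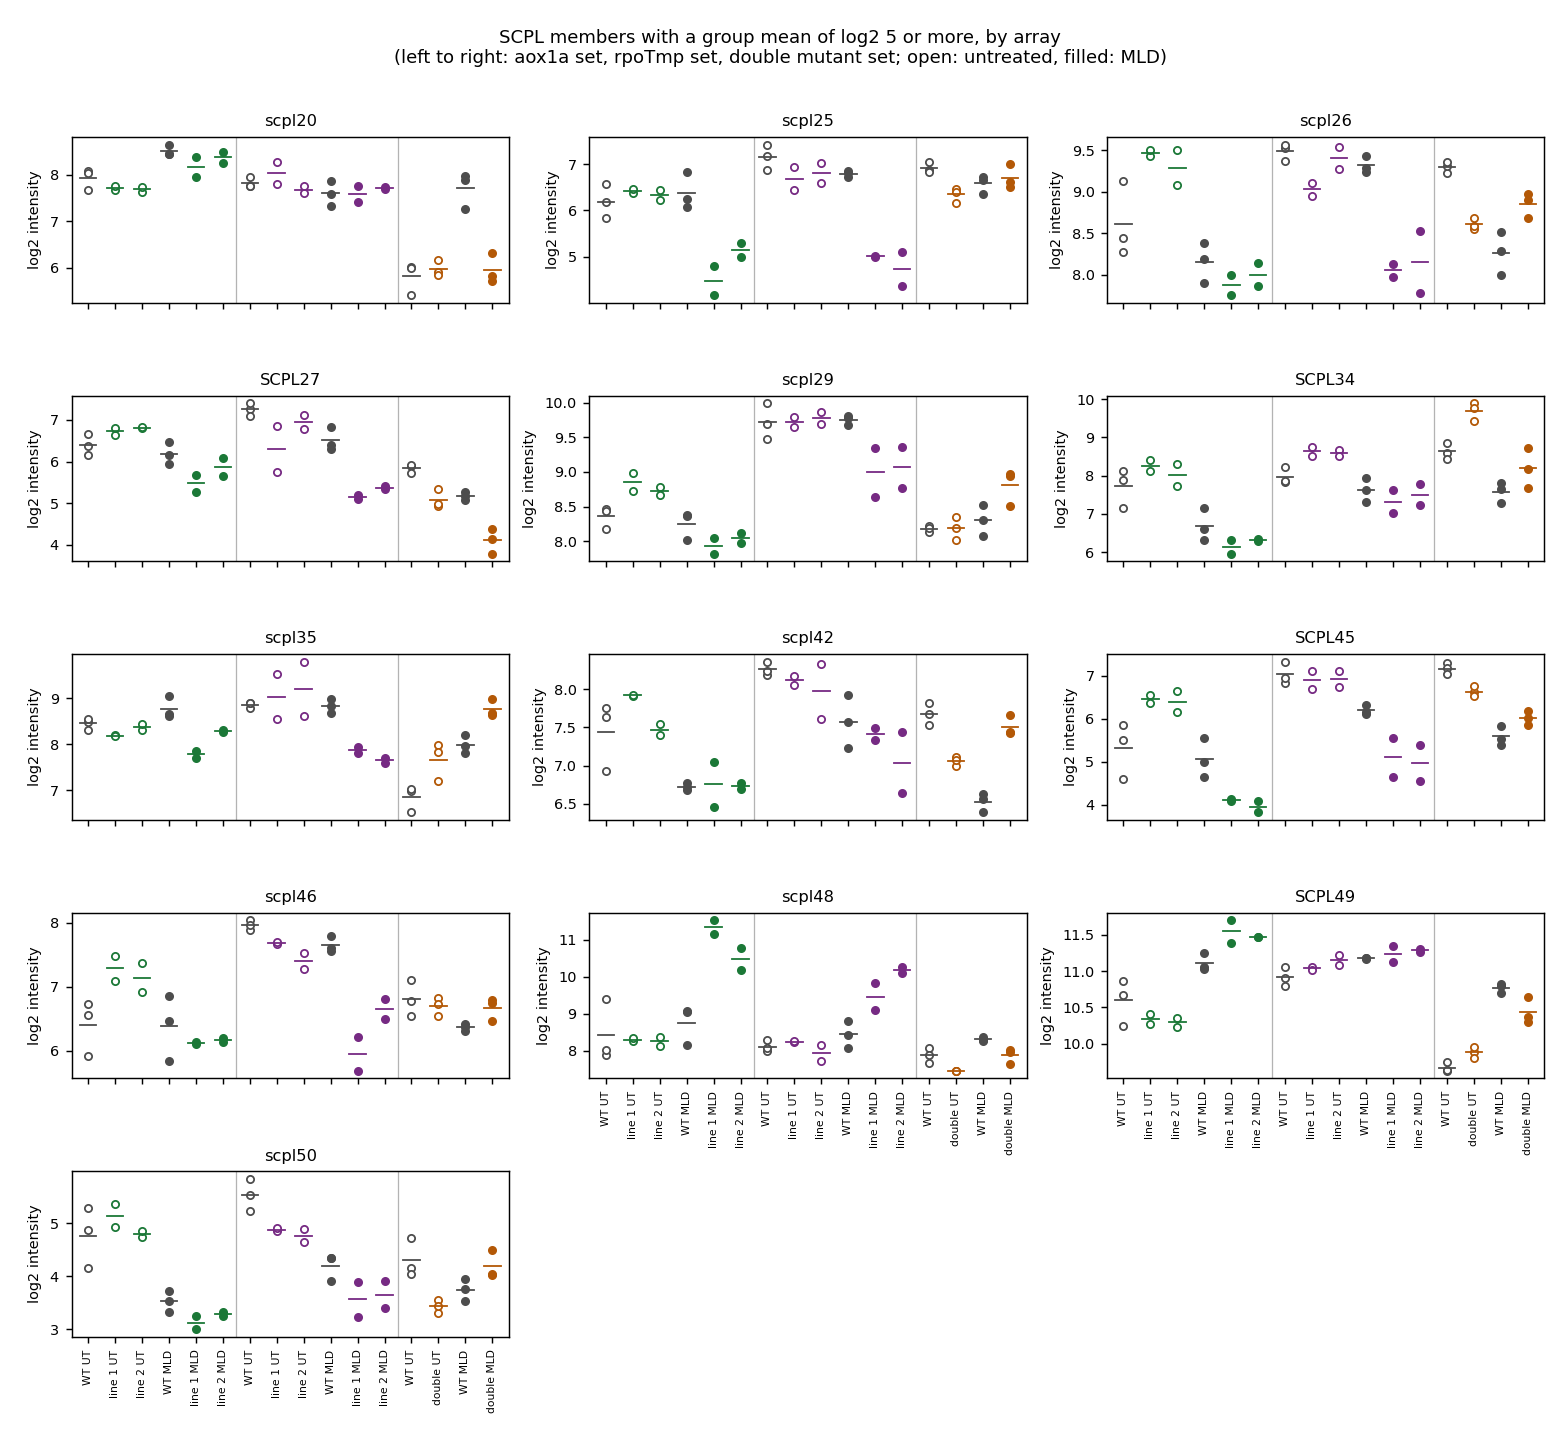
Log2 intensity of each array for the 13 SCPL members with a group mean of log2 5 or more, in 16 groups from left to right (aox1a, rpoTmp and double mutant sets; grey wild type, green aox1a, purple rpoTmp, orange double mutant; open untreated, filled MLD), with the group mean as a bar and its own vertical scale in each panel. The stressed aox1a and rpoTmp arrays of scpl48 stand at 9.10 to 11.53, and those of scpl25 and SCPL45 lie below the rest of their sets.

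The effects of the double mutant and the single mutants were set against each other with their own wild types subtracted. Untreated, the effect in the double mutant was lower than in aox1a at 3 BGLU members and at 7 SCPL members and higher at 2 SCPL members, against 23.8% of all probe sets in either direction. No member was called against rpoTmp by limma, where 9.47% of all probe sets were (4.91% higher and 4.56% lower). At an unadjusted p under 0.05 there were 0 BGLU and 2 SCPL members. Under MLD, 2 BGLU members were higher and 2 lower than in aox1a, and 5 higher and 2 lower than in rpoTmp. For SCPL the counts were 7 and 3, and 8 and 3 (background 33.0% and 41.9%).

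Some members lie beside each other in the gene table (TAIR10.1 order). BGLU16 lies between BGLU27 and DIN2, also a beta-glucosidase, and its probe set ranged from 4.57 to 9.59 over the 40 arrays, whereas that of BGLU27 ranged from 2.42 to 2.70. BGLU44 ranged from 9.28 to 12.54 and its neighbour BGLU43 from 2.53 to 3.30. The probe set of scpl28, beside scpl26, stayed between 2.19 and 2.44. Signals of different probe sets are not on a common scale, so only the variation of each is described.

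Genes of pathways that supply or use the substrates of both families were covered thinly. Of the listed flavonoid glycoside genes 6 of 20 were measured, and 5, 2 and 4 of them rose under MLD in the wild types of the aox1a, rpoTmp and double mutant sets (background 2.08%, 1.62% and 18.3%). UF3GT, from this list, rose there by 8.36 ± 0.41, 4.31 ± 0.59 and 5.56 ± 0.46 (log2 change with SE). Values for the genes that follow are given in the same way, and each, like these, had an adjusted p under 0.05 in limma. Against stressed wild type 2 of the 6 were higher and 1 lower in aox1a, 4 higher in rpoTmp, and 1 higher and 1 lower in the double mutant (background 12.4%, 30.0% and 35.9% in either direction). DFR, a reductase of anthocyanin synthesis, differed by 6.62 ± 0.75 in stressed rpoTmp and by -2.71 ± 0.39 in the stressed double mutant, in which UGT78D1, a flavonol rhamnosyltransferase, differed by 0.76 ± 0.24. Of 32 glucosinolate synthesis and transport genes 5 were measured, and 4 rose in the wild type of the double mutant set (background 18.3%), with a change of 4.71 ± 0.34 for the transporter GTR1. In the stressed double mutant 3 of them were lower than in wild type (background 17.1%), with a difference of -3.17 ± 0.34 for GTR1.

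For monolignol glucosides and lignin 6 of 15 listed genes were measured, and 2 of them rose within rpoTmp (background 18.0%). Within aox1a 1 rose and 1 fell (background 24.8% and 27.2%). In the wild type of the double mutant set 2 rose and 2 fell (background 18.3% and 24.2%), and within the double mutant 1 rose and 2 fell (background 10.2% and 11.9%). Untreated, 1 was higher and 2 were lower in the double mutant than in wild type (background 10.1% and 9.61%). Against stressed wild type 1 was higher in rpoTmp and 2 were lower in the double mutant (background 15.7% and 17.1%). UGT72E1, a monolignol glucosyltransferase, differed from wild type by 3.54 ± 0.26 in stressed rpoTmp and by -1.27 ± 0.24 in the stressed double mutant. CCR2, a cinnamoyl-CoA reductase, differed by -3.59 ± 0.22 in the latter. For sinapate esters 4 of 16 were measured. Within aox1a 1 of them rose, within rpoTmp 2 rose, and within the double mutant 1 rose and 1 fell. The background was 24.8% and 18.0% for higher calls in the single mutants, and 10.2% and 11.9% for higher and lower calls in the double mutant. In wild type 1 rose in the rpoTmp set (background 1.62%), and 1 rose and 2 fell in the double mutant set (background 18.3% and 24.2%). UGT84A3, which makes the sinapoyl glucose that acyltransferases of the SCPL family use, rose by 2.92 ± 0.27 in aox1a, 2.01 ± 0.16 in rpoTmp and 2.02 ± 0.34 in the double mutant. For abscisic acid conjugates and response 5 of 18 were measured. In the stressed double mutant 4 of them were lower than in its wild type (background 17.1%), with a difference of -3.22 ± 0.39 for the dehydrin COR47. In that wild type 4 of the 5 rose under MLD and 1 fell (background 18.3% and 24.2%). Without stress 2 were higher and 1 was lower in the double mutant than in wild type (background 10.1% and 9.61%). In stressed rpoTmp 3 were higher and 1 was lower than in wild type (background 15.7% and 14.3%). Of 13 genes of the ER body, a compartment that stores beta-glucosidases, 6 were measured, and NAI2 was the 1 called in the untreated double mutant (1.05 ± 0.19, background 19.7% in either direction). Within the double mutant 1 of the 6 rose and 2 fell (background 10.2% and 11.9%), and 2 were lower in its interaction (background 15.9%). In the stressed double mutant 1 was lower than in wild type (background 17.1%). APS4, the 1 of 17 sulphur limitation genes measured, differed from wild type by 1.27 ± 0.20 in stressed rpoTmp and by -2.31 ± 0.25 in the stressed double mutant. In the untreated double mutant APS4 was called higher than in wild type (log2 difference 1.74). Under MLD it rose in the wild type of that set (2.92) and fell within the double mutant (-1.13), and both changes were called. None of 16 myrosinase and specifier genes and none of 15 genes of dark and sugar starvation had a probe set of a single gene under the symbols searched.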

How the data were processed

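RNA of leaves was hybridised to Affymetrix arrays, 1 array per sample. The deposited values are intensity summaries per probe set on a linear scale, as their range shows. The submitters' processing notes name Partek 6.5, GCRMA, MAS5 and Affymetrix Expression Console without saying which made the deposited intensities. The arrays had similar medians and quartiles, so no further scaling was applied. Intensities were converted to log2 without a pseudocount, and 64 control probe sets were left out.

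Groups came from the sample labels. Each set of arrays had its own fit in limma 3.58.1 (R 4.3.3), in which every group had a coefficient and the lines of a single mutant were weighted equally. Moderated p-values were adjusted by the Benjamini-Hochberg method over 22746 probe sets, with a threshold of 0.05. The 19 comparisons were 12 between treatments or genotypes, 3 interactions (mutant response minus wild-type response) and 4 differences between the double mutant and a single mutant, from 1 fit of all 40 arrays. The fitting was tested on simulated data.

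Array values are given for up to 8 members per family with the largest called change, a group mean of log2 5 or more and no overlap, for members called in 4 or more of the 12, and for members called in an interaction. The members, the gene lists and this rule were chosen with earlier results of these data known. Of 22746 probe sets 13513 had 1 gene, 503 several and 8730 none in the platform annotation, which can be old. Alternatives were a pseudocount of 16, a filter at log2 5, quantile normalisation, each line alone, a replicate block and leaving out each array. No sequences were used here.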

Additional observations from a re-analysis of the deposited data

Results flagged for a closer look

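The results below were picked out because an effect differed between groups by a test of the difference itself, either the MLD response between a mutant and its wild type or the effect of a genotype (mutant minus its own wild type) between the double mutant and a single mutant. Values are log2 differences with an adjusted p under 0.05 in limma. In groups of 2 or 3 arrays no test for a single outlying array was made.

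Among BGLU members, BGLU16 differed in aox1a MLD response minus wild-type response (-2.68), rpoTmp MLD response minus wild-type response (-2.33), untreated double mutant effect minus aox1a effect (-1.54), double mutant effect minus aox1a effect under MLD (2.02) and double mutant effect minus rpoTmp effect under MLD (3.21). BGLU33 was set apart by aox1a MLD response minus wild-type response (-1.99), double mutant MLD response minus wild-type response (-0.97) and double mutant effect minus rpoTmp effect under MLD (-1.56). BGLU40 had called differences in rpoTmp MLD response minus wild-type response (-1.96), untreated double mutant effect minus aox1a effect (-1.50) and double mutant effect minus rpoTmp effect under MLD (2.42). BGLU42 differed in double mutant MLD response minus wild-type response (0.54), untreated double mutant effect minus aox1a effect (-0.84) and double mutant effect minus rpoTmp effect under MLD (0.67). BGLU43 was set apart by aox1a MLD response minus wild-type response (-0.28) and double mutant effect minus rpoTmp effect under MLD (0.49). BGLU44 had called differences in aox1a MLD response minus wild-type response (-1.13), double mutant effect minus aox1a effect under MLD (1.55) and double mutant effect minus rpoTmp effect under MLD (1.31). BGLU46 differed in double mutant effect minus aox1a effect under MLD (-0.72) and double mutant effect minus rpoTmp effect under MLD (-0.89). BGLU47 was set apart by double mutant MLD response minus wild-type response (-1.67) and double mutant effect minus aox1a effect under MLD (-1.90).

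Among SCPL members, scpl16 differed in double mutant MLD response minus wild-type response (1.14) and untreated double mutant effect minus aox1a effect (-1.32). scpl20 was set apart by double mutant MLD response minus wild-type response (-1.92), double mutant effect minus aox1a effect under MLD (-1.51) and double mutant effect minus rpoTmp effect under MLD (-1.81). scpl25 had called differences in aox1a MLD response minus wild-type response (-1.76), rpoTmp MLD response minus wild-type response (-1.51), double mutant MLD response minus wild-type response (0.69), double mutant effect minus aox1a effect under MLD (1.70) and double mutant effect minus rpoTmp effect under MLD (2.05). scpl26 differed in aox1a MLD response minus wild-type response (-0.98), rpoTmp MLD response minus wild-type response (-0.95), double mutant MLD response minus wild-type response (1.27), untreated double mutant effect minus aox1a effect (-1.45), double mutant effect minus aox1a effect under MLD (0.80) and double mutant effect minus rpoTmp effect under MLD (1.80). SCPL27 was set apart by aox1a MLD response minus wild-type response (-0.90) and untreated double mutant effect minus aox1a effect (-1.13). scpl29 had called differences in aox1a MLD response minus wild-type response (-0.69), double mutant effect minus aox1a effect under MLD (0.77) and double mutant effect minus rpoTmp effect under MLD (1.24). SCPL34 differed in double mutant effect minus aox1a effect under MLD (1.07). scpl35 was set apart by aox1a MLD response minus wild-type response (-0.56), rpoTmp MLD response minus wild-type response (-1.33), untreated double mutant effect minus aox1a effect (1.00), double mutant effect minus aox1a effect under MLD (1.51) and double mutant effect minus rpoTmp effect under MLD (1.85). scpl42 had called differences in double mutant MLD response minus wild-type response (1.61), untreated double mutant effect minus aox1a effect (-0.87), double mutant effect minus aox1a effect under MLD (0.97) and double mutant effect minus rpoTmp effect under MLD (1.34). SCPL45 differed in aox1a MLD response minus wild-type response (-2.14), double mutant MLD response minus wild-type response (0.97), untreated double mutant effect minus aox1a effect (-1.64), double mutant effect minus aox1a effect under MLD (1.46) and double mutant effect minus rpoTmp effect under MLD (1.59). scpl46 was set apart by rpoTmp MLD response minus wild-type response (-0.94), untreated double mutant effect minus aox1a effect (-0.93) and double mutant effect minus rpoTmp effect under MLD (1.66). scpl48 had called differences in aox1a MLD response minus wild-type response (2.31), rpoTmp MLD response minus wild-type response (1.41), double mutant effect minus aox1a effect under MLD (-2.58) and double mutant effect minus rpoTmp effect under MLD (-1.82). SCPL49 differed in aox1a MLD response minus wild-type response (0.68), double mutant MLD response minus wild-type response (-0.55), untreated double mutant effect minus aox1a effect (0.49), double mutant effect minus aox1a effect under MLD (-0.74) and double mutant effect minus rpoTmp effect under MLD (-0.42). scpl50 was set apart by double mutant MLD response minus wild-type response (1.32), untreated double mutant effect minus aox1a effect (-1.08) and double mutant effect minus rpoTmp effect under MLD (1.03).

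Some of these calls were lost in fits of 1 line or without 1 array, where the arrays named were left out in turn. Untreated, the double mutant effect minus the aox1a effect lost its call for BGLU40 with line 2 (-1.46, adjusted p = 0.0684) and without aox1a line 1 untreated replicate 1, aox1a line 2 untreated replicate 1, double mutant untreated replicates 1 or 2, wild-type (aox1a set) untreated replicate 2, wild-type (double set) untreated replicate 3 (adjusted p up to 0.0936). It was also lost for scpl35 with line 2 (0.90, adjusted p = 0.0934) and without double mutant untreated replicates 2 or 3, wild-type (double set) untreated replicate 3 (adjusted p up to 0.0789). So it was for scpl42 with line 2 (-0.65, adjusted p = 0.149) and without wild-type (aox1a set) untreated replicate 2, wild-type (double set) untreated replicate 3 (adjusted p up to 0.113). The same held for scpl46 with line 2 (-0.86, adjusted p = 0.0656) and without aox1a line 2 untreated replicate 1, wild-type (aox1a set) untreated replicate 2, wild-type (double set) untreated replicate 2 (adjusted p up to 0.0873). It was also lost for SCPL49 with line 1 (0.47, adjusted p = 0.0536) and without double mutant untreated replicate 3, wild-type (aox1a set) untreated replicate 2 (adjusted p up to 0.0984). So it was for scpl50 with line 2 (-0.91, adjusted p = 0.0815) and without wild-type (aox1a set) untreated replicate 2, wild-type (double set) untreated replicate 2 (adjusted p up to 0.0780). Under MLD, that difference lost its call for BGLU46 with line 1 (-0.63, adjusted p = 0.0953) and without aox1a line 2 MLD replicate 1, wild-type (aox1a set) MLD replicate 1, wild-type (double set) MLD replicate 3 (adjusted p up to 0.130). It was also lost for scpl26 with line 2 (0.73, adjusted p = 0.0555) and without wild-type (aox1a set) MLD replicate 1, wild-type (double set) MLD replicate 3 (adjusted p up to 0.0566). So it was for SCPL34 with line 2 (0.98, adjusted p = 0.0806) and without aox1a line 1 MLD replicate 2, double mutant MLD replicate 1, wild-type (aox1a set) MLD replicate 2, wild-type (double set) MLD replicate 3 (adjusted p up to 0.101). Against rpoTmp under MLD, the difference lost its call for BGLU44 without double mutant MLD replicate 3, rpoTmp line 1 MLD replicate 2, rpoTmp line 2 MLD replicate 1, wild-type (double set) MLD replicate 3, wild-type (rpoTmp set) MLD replicate 1 (adjusted p up to 0.0959). It was also lost for SCPL49 with line 1 (-0.39, adjusted p = 0.0724) and without double mutant MLD replicates 1 or 2, rpoTmp line 1 MLD replicate 1, wild-type (double set) MLD replicates 1 or 3 (adjusted p up to 0.0866). Of the interactions, those of BGLU16, BGLU33, BGLU43, scpl25, scpl26, SCPL27, scpl29, scpl35, SCPL45, scpl48 and SCPL49 in the aox1a set, those of scpl26, scpl35, scpl46 and scpl48 in the rpoTmp set and those of BGLU42, scpl16 and scpl25 in the double mutant set were lost in a fit of 1 line or without 1 array. Without the array of untreated wild type that stood apart in the aox1a set, the untreated double mutant effect minus the aox1a effect was not called for BGLU40, scpl42, scpl46, SCPL49 and scpl50, nor was the aox1a interaction of scpl26, SCPL27, scpl35 and SCPL49. The cause was not tested.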

How the results depend on the processing

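No call changed direction under any alternative. Of 194 calls of members (19 comparisons), 6 were lost with a pseudocount of 16, 5 with quantile normalisation and 0 of 172 with dim probe sets left out. With 1 line of a single mutant, 22 of 122 calls were lost with line 1 and 42 of 122 with line 2. Leaving out 1 array at a time, 141 calls were kept throughout and 53 were lost at least once. Deviations of same-numbered arrays correlated above 0.1 in 7 of 15 pairs of the aox1a set, 2 of 15 of the rpoTmp set and 2 of 12 of the double mutant set. The highest were 0.586 and 0.365, for replicates 1 and 2 of untreated and stressed wild type in the aox1a set, where replicate 3 gave -0.204. The numbers were not taken as pairs in the main fits, but these values do not settle whether arrays of the aox1a set were paired. All 4 pairs of untreated wild type and aox1a, which share 2 wild-type arrays, were above 0.1 (0.115 to 0.247). With the replicate block 15 of 194 calls were lost. They were, in the aox1a set, BGLU43 untreated, BGLU16 under MLD, the interactions of scpl26 and scpl35 and the wild-type response of scpl50, and in the rpoTmp set BGLU42 untreated, BGLU43 and scpl29 under MLD, the response of BGLU44 within the mutant and the wild-type response of scpl16. In the double mutant set they were scpl25 untreated, the interactions of BGLU42 and scpl25 and the wild-type response of scpl50, and the last was BGLU44 in the double mutant effect minus the rpoTmp effect under MLD. The cause of these losses was not tested, except that fits of 1 line hold fewer arrays.

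For BGLU, line 2 alone gave 1 in place of 3 members called in stressed aox1a against wild type, 1 in place of 4 in the aox1a interaction, 2 in place of 8 in the response within aox1a and 0 in place of 1 in each untreated single mutant. Line 1 alone gave 2 in place of 4 in the response within rpoTmp. The 1 call in untreated aox1a went to 0 with quantile normalisation and with the replicate block, and the 1 call in untreated rpoTmp went to 0 with the replicate block. With dim probe sets left out, 1 in place of 0 was called in the wild-type response of the aox1a set and of the rpoTmp set.

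For SCPL, line 2 alone gave 0 in place of 3 in stressed aox1a, 0 in place of 8 in the aox1a interaction (1 with line 1), 5 in place of 9 in the untreated double mutant effect minus the aox1a effect, and 2 in place of 5 in the rpoTmp interaction (3 with line 1). In the untreated double mutant effect minus the rpoTmp effect, line 2 alone, the pseudocount and quantile normalisation each gave 1 in place of 0. With dim probe sets left out, 3 in place of 0 were called in untreated aox1a, 3 in place of 1 in the wild-type response of the aox1a set and 1 in place of 2 in that of the rpoTmp set. The pseudocount and the replicate block each took the former wild-type response from 1 to 0, and the replicate block took the latter from 2 to 1.

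Leaving out 1 array at a time, the BGLU counts ran from 0 to 3 in untreated aox1a, 1 to 3 in the untreated double mutant, 0 to 2 in untreated rpoTmp, 2 to 6 in the response within rpoTmp, and 0 to 2 and 0 to 1 in the wild-type responses of the aox1a and rpoTmp sets. They ran from 2 to 6 in the untreated double mutant effect minus the aox1a effect and from 0 to 1 in that minus the rpoTmp effect. The SCPL counts ran from 3 to 5 in stressed aox1a, 0 to 3 in untreated aox1a, 4 to 9 in the aox1a interaction, 6 to 11 in the untreated double mutant, 0 to 1 in untreated rpoTmp, 3 to 7 in the rpoTmp interaction, and 0 to 5 and 0 to 3 in the wild-type responses of the aox1a and rpoTmp sets. They ran from 5 to 10 in the untreated double mutant effect minus the aox1a effect and from 0 to 2 in that minus the rpoTmp effect. Without the array of untreated wild type that stood apart in the aox1a set, the SCPL count in that set's wild-type response was 5 and in its interaction 4, and the BGLU counts were 2 in the wild-type response and 0 in untreated aox1a.

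With 2 to 4 arrays per group, small changes of members with signals near the floor could not be told from array noise.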

Other observations

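The 3 probe sets that match several genes of the families (BGLU22 with BGLU21, AT3G56540 with scpl39, and scpl37 with scpl36) lay between log2 2.00 and 2.78 on all 40 arrays. Those of BGLU22 with BGLU21 and of AT3G56540 with scpl39 were each called lower within stressed aox1a by limma, at a log2 change of -0.067 and -0.066, and no other comparison was called for the 3.

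Among members with signals near the floor, 2 stood out on single arrays. BGLU45, a monolignol glucosidase, read 6.00 and 3.39 on the arrays of stressed rpoTmp line 2 and between 2.63 and 3.02 on all other arrays. BGLU19 read 4.36 on the second array of untreated rpoTmp line 2 and between 2.19 and 2.28 on all others.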
